A study of Danio rerio with 12 samples.

Results

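The response of the gastrulating zebrafish embryo to added retinoic acid was read from 4 of the 12 ATAC-seq libraries of a study of 3 developmental stages. The 4 libraries were those labelled 80% epiboly, a late stage of gastrulation, and the other 8 were of embryos at 12 somites or 24 hours post fertilization (hpf). In 2 of the 4, whole embryos labelled wild-type had received 0.1 µM all-trans retinoic acid (atRA). In the other 2 they had received the solvent dimethyl sulfoxide (DMSO). Both groups were exposed from 30% epiboly, shortly before gastrulation begins, and both were freed of chorion and yolk before lysis. The embryos of the 2 later stages were exposed only from 80% epiboly, so their treatment covered other hours of development. The labels do not say whether replicates came from separate pools of embryos, so every spread given here is that between libraries and may be technical.

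Retinoic acid is made from vitamin A in the trunk mesoderm of the embryo and broken down by Cyp26 enzymes in the future head, which leaves it unevenly spread along the body. It enters nuclei and binds retinoic acid receptors, which sit on DNA with retinoid X receptors and recruit coactivators or corepressors of transcription. In the vertebrate gastrula it is known for setting positions in the hindbrain and the anterior trunk through genes such as those of the Hox clusters, and an excess shifts anterior tissue to more posterior fates. ATAC-seq cuts DNA with a transposase where it is not wrapped in nucleosomes, so a peak marks an accessible stretch such as an active promoter or enhancer. In a lysate of whole embryos, fewer cells with an accessible site and less access per cell cannot be told apart.

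The authors deposited 1 list of peaks per library, with coordinates on GRCz10 (danRer10) per the submitters' processing notes. No annotation of that build was used, so regions are named by position only. DMSO replicates 1 and 2 had 433132 and 439137 peaks, and atRA replicates 1 and 2 had 351548 and 154354. The means were 252951 ± 139437 peaks in atRA and 436134 ± 4246 in DMSO (SD, n = 2 each), a difference of -183184 (two-sided exact permutation p = 0.33). Without atRA replicate 1 the difference was -281780 and without atRA replicate 2 it was -84586.5. No comparison of 2 libraries with 2 can give a smaller two-sided p than this. The depth of a library was read as its most frequent background pileup, the number of overlapping fragments that the peak caller took as background. It was 3.18 and 3.28 in DMSO and 2.47 and 0.87 in atRA, so atRA replicate 2 was the shallowest of the 4 by far. Peaks of at least 1 kb numbered 519 and 464 in DMSO, 196 in atRA replicate 1 and 24 in atRA replicate 2. Lists of such unequal depth were compared through equal numbers of best-ranked peaks. The 50000 peaks with the smallest p-values are called the top set of a library and the best 100000 its wide set. The summit of the peak at rank 50000 was covered by 40 and 57 fragments in DMSO, by 38 in atRA replicate 1 and by 15 in atRA replicate 2. Each of these values is of 1 peak and depends on its local background. The median summit pileup of the top set was 63 and 64 in DMSO, 51 in atRA replicate 1 and 22 in atRA replicate 2.

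The libraries of 1 treatment were not equally alike. An index of dispersion set the difference in summit pileup between 2 libraries, over their shared top peaks, against the sampling error of counting, which gives 1. The index was 0.309 for the DMSO pair and 1.48 for the atRA pair. The pairs of 1 DMSO and 1 atRA library gave 1.34 to 1.52, so the atRA replicates differed from each other as much as from the controls. In the later stages all same-treatment pairs were below 1, at 0.484 to 0.600. The mixed pairs of those stages were below 1 too, at 0.665 to 0.813 at 12 somites and 0.585 to 0.674 at 24 hpf. An index below 1 therefore did not mark libraries of the same treatment. Whether 1 is the right baseline for pileups at shared top peaks was not tested. The DMSO pair of gastrulae was the closest of the 6 same-treatment pairs. As other replicate pairs also had an index below 1, its libraries were kept as the 2 samples that their labels give.

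The first comparison asked whether treatment set the best peaks of the libraries apart. DMSO libraries shared 86.4% of their top peaks, an overlap of 1 bp being enough for 2 peaks to count as shared. The atRA libraries shared 74.754%, and the 4 mixed pairs shared 74.816% to 76.3%. The separation, which is the mean of same-treatment pairs minus that of mixed pairs, was 5.30 percentage points. Pairing the same libraries the 2 crossed ways, with 1 DMSO and 1 atRA library on each side, gave -3.08 and -2.22 points. The separation was larger among fewer and stronger peaks, at 6.05 points for the best 20000, 7.66 for the best 5000 and 8.88 for the best 1000. It was 4.11 points for the best 150000. Among the best 1000 peaks the DMSO pair shared 70.7% and the atRA pair 51.5%. The mixed pairs with atRA replicate 1 shared 56.5% and 59.4%, more than the atRA pair did, and those with atRA replicate 2 shared 46.6% and 46.4%. Without DMSO replicate 1 or DMSO replicate 2 the separation at 50000 peaks turned to -0.792 or -0.224 points, so it rested on the closeness of the DMSO pair.

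**Figure D1:**
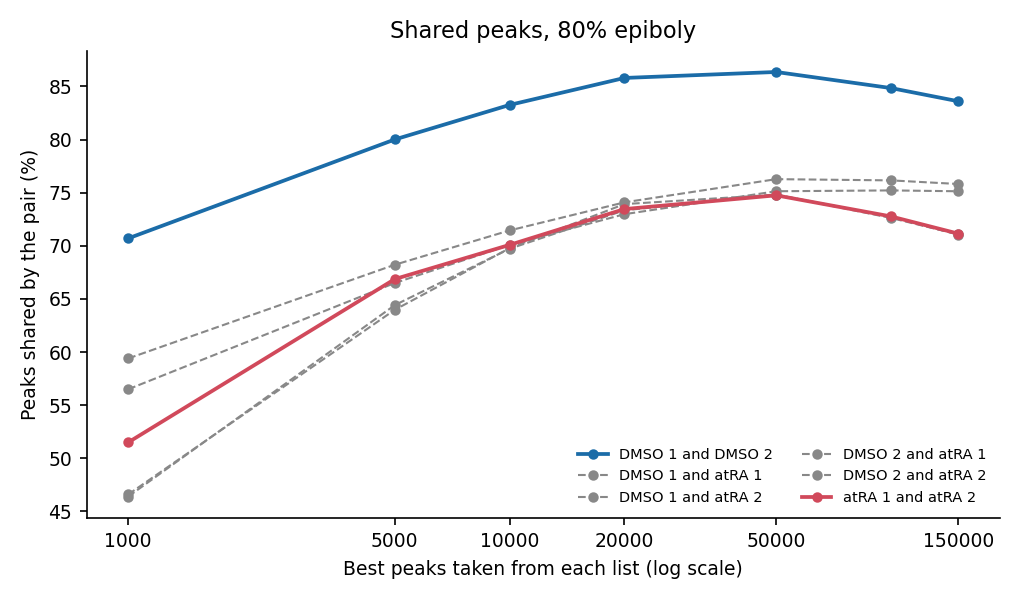
Percentage of peaks shared by each of the 6 pairs of libraries (vertical axis) against the number of best peaks taken from each list (horizontal axis, log scale). The line of the DMSO pair lies above the others at every number, with 70.7% at 1000 and 86.4% at 50000 peaks, while the line of the atRA pair runs close to the 4 dashed lines of mixed pairs and lies below all 4 at 50000, at 74.754% against 74.816% to 76.3%.

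The top sets of the 4 libraries merged into 72762 regions. Of these, 31067 (42.7%) were in all 4 top sets. Another 4346 were in the top sets of both DMSO libraries only and 3220 in those of both atRA libraries only. The 4 combinations of 1 DMSO and 1 atRA library held 1083, 880, 1117 and 1407 regions. Regions in a single top set numbered 3336 and 3000 for the DMSO libraries against 6217 and 6710 for the atRA libraries, so each atRA library had more regions of its own than either control.

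The second comparison asked which single regions opened or closed with atRA. A region was called gained if it was inside both atRA top sets and outside both DMSO wide sets, and lost in the reverse case. By this rule 422 regions (0.58%) were gained and 610 (0.838%) were lost. The same rule applied to crossed pairs called 4 regions (0.0055%) for DMSO 2 with atRA 2 and 16 (0.022%) for DMSO 1 with atRA 1. It called 14 (0.0192%) for DMSO 1 with atRA 2 and 30 (0.0412%) for DMSO 2 with atRA 1. A crossed call needs the DMSO libraries to differ from each other, and that was rare. Only 326 regions in the top set of DMSO replicate 1 (0.654%) lay outside the wide set of DMSO replicate 2, and 317 (0.636%) in the reverse direction. Between the atRA libraries those counts were 3909 (7.86%) and 3328 (6.74%). Between a DMSO and an atRA library they ran from 2717 to 3983. Crossed calls of either kind therefore could not exceed 317 or 326 regions, whereas the limit was 2717 for gained and 2913 for lost calls. The counts between the atRA libraries lay within the range of those between treatments.

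**Figure D2:**
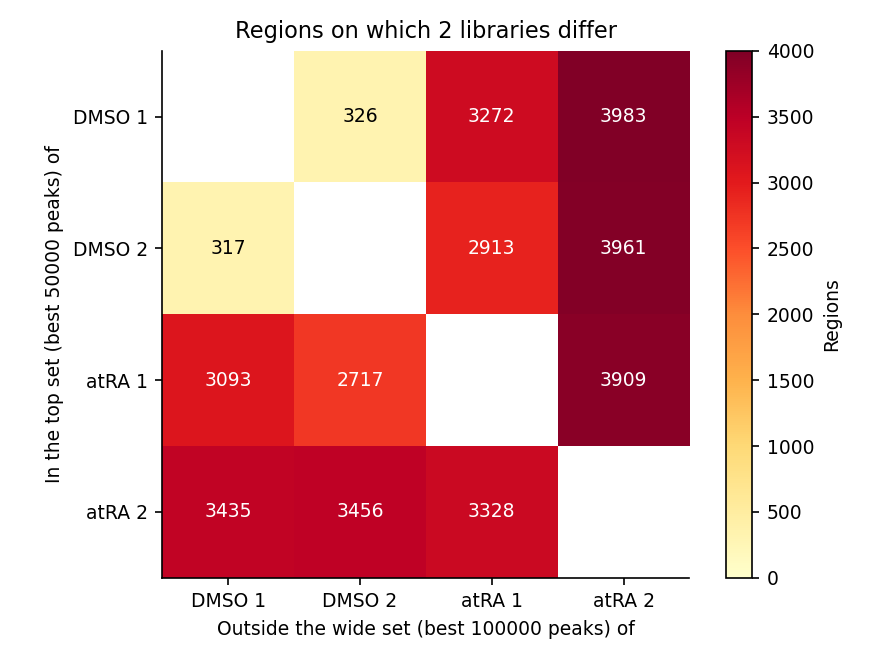
Number of regions in the top set of 1 library (rows) that lay outside the wide set of another (columns), with darker cells for more regions. The DMSO pair has 326 and 317 such regions, and all other cells, those between the atRA libraries included, hold 2717 to 3983.

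Most gained regions had a peak of lower rank in both lists of the other group, whereas 320 of the 610 lost regions had no peak in at least 1 atRA list, mostly the shallow one. Of the 422 gained regions, 41 had no peak in at least 1 DMSO list. In DMSO replicate 1, 227 of the 422 gained regions ranked past 100000 but within 150000, 114 past that but within 250000, and 35 had no peak. DMSO replicate 2 gave nearly the same counts of 226, 117 and 32. Both DMSO lists lacked a peak at 26 gained regions. In atRA replicate 1, 328 of the 610 lost regions ranked past 100000 but within 150000, 192 past that but within 250000, and 40 had no peak. In atRA replicate 2, 309 lost regions had no peak, and that list ended at rank 154354. Both atRA lists lacked a peak at 29 lost regions. Of gained regions, 1.90% and 2.61% were in the best 10000 of atRA replicates 1 and 2. Of lost regions, 0.492% were in the best 10000 of each DMSO list. Over all regions the share was 13.7% in each list. Regions in 1 DMSO and 1 atRA top set gave 0% in each DMSO list and 0.156% in each atRA list, less than the called regions. The worse of the 2 own ranks was within 10000 for 3 gained regions and 1 lost region, and within 20000 for 13 and 11. Gained regions had a median width of 356 bp and lost ones of 341 bp, against 441 bp for regions in all 4 top sets and 371 bp for all regions. Regions in 1 DMSO and 1 atRA top set had 337 bp, so the smaller width was not particular to called regions.

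Ranks near the limit of the wide set were uncertain in the shallow library. In atRA replicate 2, 9602 peaks shared the same p-value and fold at ranks 98864 to 108465, each with a summit pileup of 8. The position rule placed those up to chromosome 3 inside the limit and the others outside. When tied peaks were kept together, 510 regions were lost and 413 gained. The share of regions lost, per 1000, was 5.82 on chromosomes 1 to 3 and 8.80 on chromosomes 4 to 25, and with ties kept together it was 5.72 and 7.20. Of the lost regions, 499 of 610 were also called with ties kept together, and of the gained regions 413 of 422.

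The regions named here are the 10 gained and the 10 lost with the best worse rank in their own group. They are the ends of a ranking chosen on these ranks, and no single region was tested. The best-ranked gained region, chr23:43500242-43500610, ranked 1167 in atRA replicate 1 and 3492 in atRA replicate 2, with summit pileups of 81 and 43. Neither DMSO list had a peak there. At 12 somites it had a peak in 1 of 4 libraries, at rank 185302 in DMSO replicate 2, while at 24 hpf it was in all 4 top sets, at ranks 1107 and 10877 in DMSO and 6653 and 6870 in atRA. At 24 hpf it was thus in the top set with and without atRA.

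The second gained region, chr22:34685739-34686457, was the widest of the 10 at 719 bp. It ranked 6486 and 2580 in the atRA libraries against 124398 and 223798 in DMSO, with pileups of 63 and 50 against 26 and 19. Background pileups were 2.47 and 0.87 in the atRA libraries and 3.18 and 3.28 in DMSO, and the part of depth in this call was not tested. In all 8 later libraries this region was in the top set, at ranks 869 to 10427, the controls of 12 somites (1196 and 1189) included. A region that ranked low in control gastrulae and high in older control embryos was therefore among the best-ranked of the gained regions.

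Regions of the same behaviour were chr7:11880576-11880908 and chr1:41228432-41228958, both in all 8 later top sets. The former ranked 12425 and 11970 in atRA and 120133 and 164689 in DMSO, and the latter 18237 and 11888 in atRA and 111265 and 167374 in DMSO. Another pattern was shown by chr17:40358583-40359118, which ranked 12301 and 7923 in atRA and 197768 and 356060 in DMSO. It was in no later top set and had no peak in any 24 hpf list. The region chr15:46547973-46548307, at 18131 and 10144 in atRA against 346837 and 241693 in DMSO, was likewise in no later top set. Over the 10 gained regions, 6 were in no top set at 12 somites, 1 was in 3 and 3 were in all 4. Where DMSO lists had a peak, at 7 of the 10, its fold enrichment over background was 3.59 to 6.94 in replicate 1 and 3.5 to 5.56 in replicate 2, against 9.46 to 21.6 and 11.2 to 16.7 at all 10 in the atRA libraries. The 10 were chosen on ranks by p-value and then fold, so this contrast follows largely from the choice.

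Some gained regions without a DMSO peak shared a window of 200 kb. The window chr23:43400001-43600000 held 3 gained regions among its 10 regions, none with a DMSO peak: the best-ranked one, chr23:43447189-43447499 at ranks 5835 and 8811, and chr23:43414550-43414812 at 10908 and 19960. The window chr22:7600001-7800000 also held 3, again none with a DMSO peak. The strongest of these, chr22:7642325-7642784, ranked 5309 and 17910 in atRA, had no peak in any list at 12 somites and had peaks in all 4 lists at 24 hpf, 2 of them in the top set. The neighbouring region chr22:7592129-7592709, just outside that window, ranked 17178 and 7616 in atRA against 107592 and 188677 in DMSO. Windows of 200 kb with 3 gained regions numbered 4 of the 389 with any, the other 2 being chr22:34600001-34800000, around the second named region, and chr9:54200001-54400000. No window held more, and 360 held a single gained region. Whether windows with 3 exceed what the uneven spread of all regions would give was not tested.

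The best-ranked lost region, chr9:23109568-23109946, ranked 6005 and 3674 in the DMSO libraries, with pileups of 99 and 105. It ranked 280094 in atRA replicate 1, with a pileup of 15, and had no peak in atRA replicate 2. None of the 8 later lists had a peak there, so it was found only in gastrula lists. The second, chr16:53294772-53295090, ranked 3420 and 10038 in DMSO, ranked 208131 in atRA replicate 1 and had no peak in atRA replicate 2. It was in all 4 top sets at 12 somites, at ranks 13455 to 36075, and in no list at 24 hpf. At 12 somites it was thus accessible with and without atRA.

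The third lost region, chr5:31023876-31024226, ranked 10596 and 4870 in DMSO and 122122 and 136240 in atRA. The fourth, chr12:11285858-11286317, ranked 11003 and 7828 in DMSO and 169017 and 126990 in atRA, and no later list had a peak there. Pileups at these regions in atRA replicate 2 were 7 each, in a list with a background pileup of 0.87. Of the 10 named lost regions 8 were in no top set at 12 somites and 9 in none at 24 hpf. Only 5 of the 10 had any peak in atRA replicate 2, at pileups of 7 to 8, whereas 9 had one in atRA replicate 1, at pileups of 13 to 23. With tied peaks kept together, chr22:14115283-14115600, chr25:9414193-9414543 and chr9:13130723-13131204 were no longer called, as their ranks of 101034, 108255 and 102404 in an atRA library lay among the ties. Some lost regions also shared a window, and 5 of the 549 windows of 200 kb with any lost region held 3, none holding more. These were chr6:27400001-27600000, chr9:13000001-13200000, chr14:32800001-33000000, chr15:17000001-17200000 and chr23:23200001-23400000. In the same order they held 10, 14, 21, 17 and 20 regions of any class. Whether such windows exceed what the uneven spread of all regions would give was not tested. In the window on chromosome 6 all 3 lost regions lacked a peak in atRA replicate 2, and their ranks in atRA replicate 1 were 184442, 184443 and 162266. In the window on chromosome 9 the strongest was the ninth named region, chr9:13130723-13131204, whose ranks were 13547 and 17501 in the DMSO libraries and 127922 and 102404 in the atRA libraries.

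**Figure D3:**
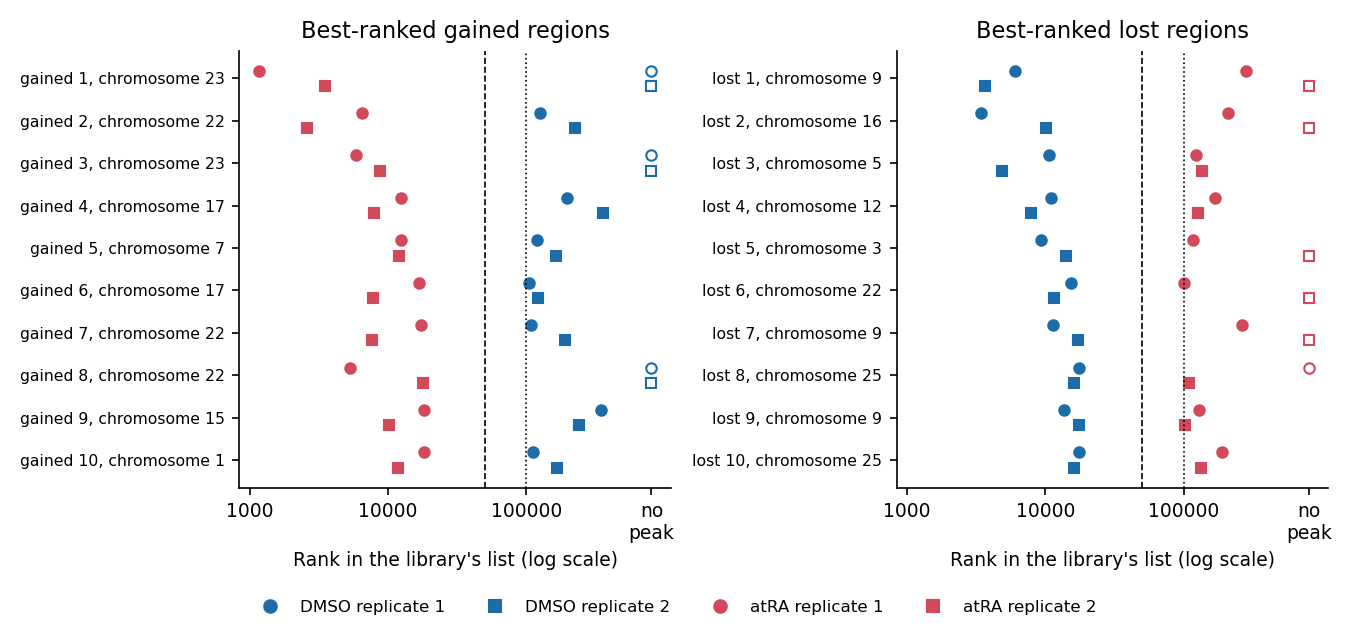
Rank (horizontal axis, log scale, best at the left) of the 10 best-ranked gained and the 10 best-ranked lost regions in each of the 4 libraries, with open symbols for lists without a peak. The dashed line marks rank 50000 and the dotted line rank 100000, and atRA and DMSO ranks lie on opposite sides of both lines because the calls require it.

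Regions at the limits differed little across them. The gained region nearest the limit, chr9:17699275-17699590, ranked 49935 and 33193 in atRA, and the nearest region beyond it, chr7:12000134-12000320, ranked 50096 and 49354. The lost region nearest the limit, chr7:19137257-19137643, ranked 49982 and 41500 in DMSO, and the nearest beyond it, chr7:50787015-50787343, ranked 28558 and 50028.

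Differences in rank were also counted among the 31067 regions in all 4 top sets, which the calls above leave out. Both DMSO libraries ranked 1193 of these regions (3.84%) at least 2-fold better than either atRA library, and both atRA libraries ranked 779 (2.51%) at least 2-fold better than either DMSO library. Crossed pairs gave 50 regions (0.161%) for DMSO 2 with atRA 2 and 103 (0.332%) for DMSO 1 with atRA 1. They gave 81 (0.261%) for DMSO 1 with atRA 2 and 185 (0.595%) for DMSO 2 with atRA 1. At 4-fold the counts were 150 towards DMSO and 56 towards atRA, against 0 to 13 in crossed pairs. At 8-fold they were 32 and 3, against 0 to 1. At each of these limits the count towards DMSO was the larger, and crossed counts again required the close DMSO libraries to differ.

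The regions with the largest shifts were chosen after their values were seen. Towards DMSO, chr9:7583962-7584362 ranked 109 and 68 in the controls, with pileups of 103 and 106, and 11452 and 22133 in the atRA libraries, with pileups of 54 and 19. The region chr22:1769098-1769443 ranked 24 and 48 in DMSO and 3894 and 2491 in atRA. Towards atRA, chr11:43010705-43011247 ranked 317 and 159 in atRA, with pileups of 115 and 78, and 9884 and 8900 in DMSO, with pileups of 77 and 76. Here the shallow atRA replicate 2 had as many fragments at the summit as the DMSO libraries. The 3 most shifted regions in each direction were in all 8 later top sets, so they were accessible throughout the stages sampled.

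Gained and lost regions differed in where they lay along the chromosomes, a comparison chosen after the positions were seen. The end of a chromosome was taken as the last peak on it in any of the 12 lists. The end segments of the chromosomes, 10% of the length at either end, held 134 of the 422 gained regions (31.8%) and 65 of the 610 lost regions (10.7%). They held 23.9% of all regions, 23.9% of those in all 4 top sets and 24.6% of those in 1 DMSO and 1 atRA top set. The middle of the chromosomes, over 40% of the length from either end, held 8.53% of gained and 32.5% of lost regions, against 18.8% of all regions. Lost regions thus lay towards the middle of chromosomes and gained ones towards the ends.

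The same gradient was seen in the larger classes and in whole lists. The larger classes include the gained and lost regions, and all these values come from the libraries and ranks that made the calls. They are therefore no separate support for the gradient. Of the regions in both atRA top sets only, 33.0% were in the end segments, and of those in both DMSO top sets only, 13.5%. The 4 crossed combinations gave 20.9% to 27.3%. Of the best 50000 peaks, 21.8% and 22.0% were in the end segments in DMSO and 25.5% and 25.1% in atRA, without overlap. The means were 21.9% ± 0.163 and 25.3% ± 0.238 (SD, n = 2 each), 3.38 points apart (two-sided exact permutation p = 0.33, the smallest possible). Both atRA libraries lay above both DMSO libraries on 24 of the 25 chromosomes and below on 0, the exception being chromosome 11, where the groups overlapped. Among the best 10000 peaks the shares were 22.1% and 22.7% in DMSO and 27.6% and 26.7% in atRA, and among all peaks 23.0% in each DMSO list and 25.1% and 25.5% in atRA.

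The atRA libraries, at background pileups of 2.47 and 0.87, had nearly the same share in the end segments. At 12 somites the order was the reverse, with 26.4% and 25.8% in DMSO and 24.6% in each atRA library, a difference of -1.50 points. At 24 hpf the groups overlapped, at 22.1% and 21.6% in DMSO and 22.1% and 21.9% in atRA. The differences between atRA and DMSO at 80% epiboly and 12 somites lay 4.87 points apart, with a two-sided exact permutation p of 0.0556, the smallest that 36 labelings can give. At 80% epiboly and 12 somites the group with the lower background pileups had the larger share, DMSO at 12 somites having 0.69 and 1.15 and atRA 1.6 and 1.44. At 24 hpf, where the shares overlapped, background pileups were 1.39 and 2.03 in DMSO and 2.03 and 1.98 in atRA. The part of depth in the differences between groups was not tested. The later embryos were exposed only from 80% epiboly, and the part of exposure was not tested either.

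**Figure D4:**
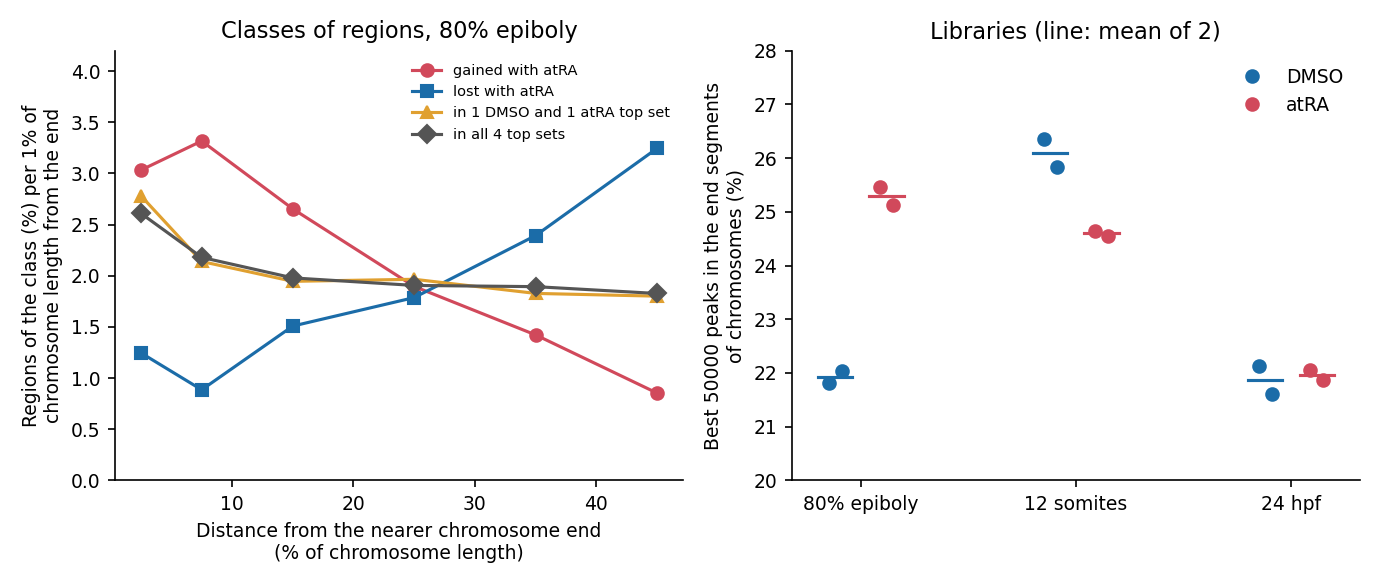
Left, percentage of the regions of each class per 1% of chromosome length (vertical axis) against the distance from the nearer chromosome end (horizontal axis, percentage of chromosome length). Right, percentage of the best 50000 peaks in the end segments of chromosomes in each of the 12 libraries, on an axis that starts at 20%; the atRA libraries are higher at 80% epiboly (25.5% and 25.1% against 21.8% and 22.0%) and lower at 12 somites.

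The third comparison followed the called regions into the 8 libraries of later stages, which the calls did not use. At 12 somites, 36.5% and 39.3% of gained regions were in the top sets of the DMSO libraries and 42.7% and 42.9% in those of the atRA libraries. Lost regions were in those 4 top sets at 8.36%, 8.85%, 12.0% and 11.3%. Regions in 1 DMSO and 1 atRA top set, which the treatment does not set apart, gave 35.4%, 39.0%, 36.1% and 37.3% in the same order. The share of gained regions was above that of these regions in each of the 4 libraries, narrowly in DMSO. That of lost regions was below it. Gained and lost calls also required absence from both wide sets of the other group, a rule not put on these regions. Without that rule, regions in both atRA top sets only gave 47.3%, 50.6%, 49.8% and 50.7%. Regions in both DMSO top sets only gave 19.0%, 22.3%, 24.3% and 24.0%. Over all 72762 regions the shares were 50.7%, 54.4%, 52.9% and 54.0%, so both gained and lost regions lay below the overall share.

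At 24 hpf the shares were 26.1% and 26.8% of gained regions in DMSO and 30.6% and 30.3% in atRA. For lost regions they were 15.1% and 14.8% in DMSO and 13.9% and 14.1% in atRA. Regions in 1 DMSO and 1 atRA top set gave 34.4% and 35.2% in DMSO and 33.8% and 32.7% in atRA. Gained regions, which lay above these at 12 somites, thus lay below them in all 4 libraries at 24 hpf. Lost regions lay below them at both stages. Regions in both atRA top sets only, called without the wide-set rule, lay above them at 24 hpf too. They gave 37.0% and 37.3% in DMSO and 39.5% and 38.2% in atRA, so the order at 24 hpf depended on that rule. Regions in both DMSO top sets only gave 27.7% and 28.1% in DMSO and 27.1% and 26.4% in atRA. Over all regions the shares at 24 hpf were 48.6% to 50.3%. In none of the 8 later top sets were 416 of the lost regions (68.2%), 136 of the gained (32.2%) and 30.2% of those in 1 DMSO and 1 atRA top set. In all 8 were 36 gained regions (8.53%), 7 lost regions (1.15%) and 8.85% of those in 1 DMSO and 1 atRA top set. Over all regions 24.4% were in none of the 8 and 28.5% in all 8. The gained share in all 8 was thus near that of regions in 1 DMSO and 1 atRA top set. Most lost regions were therefore in a top set at 80% epiboly only, among the stages sampled. In the whole later lists, however, 38.0% to 64.6% of lost regions had a peak, against 77.3% to 93.5% of all regions. Of regions in both DMSO top sets only, 47.9% were in none of the 8 later top sets. Of those in both atRA top sets only, 24.1% were in none.

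The gap between gained and lost regions depended on the atRA replicates. The mean share in the 12 somites DMSO top sets was 37.9% for gained and 8.61% for lost regions. Called with atRA replicate 2 as the only treated library, it was 20.1% and 19.7%, and with atRA replicate 1 as the only one, 29.9% and 15.7%. Calls that rested on atRA replicate 2 alone thus left a gap of 0.37 points. Later atRA libraries held more of the gained regions than later DMSO libraries, by 4.86 points at 12 somites and 4.03 points at 24 hpf, without overlap at either stage. The mean of 4.44 points had an exact permutation p of 0.0556 over 36 labelings, the smallest possible, and 0.167 after Benjamini-Hochberg adjustment over 3 tests. Lost regions differed by 3.03 points at 12 somites and -0.902 points at 24 hpf, also without overlap at either stage. The excess in the 12 somites atRA libraries was thus not limited to gained regions. Background pileups at 12 somites were 1.6 and 1.44 in atRA and 0.69 and 1.15 in DMSO. At 24 hpf they were 2.03 and 1.98 in atRA and 1.39 and 2.03 in DMSO. The part of depth in these differences was not tested. For lost regions the mean difference was 1.07 points (exact permutation p = 0.33, adjusted 0.389). For regions in 1 DMSO and 1 atRA top set the differences were -0.501 and -1.53 points. Their mean was -1.01 points (exact permutation p = 0.389, adjusted 0.389).

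**Figure D5:**
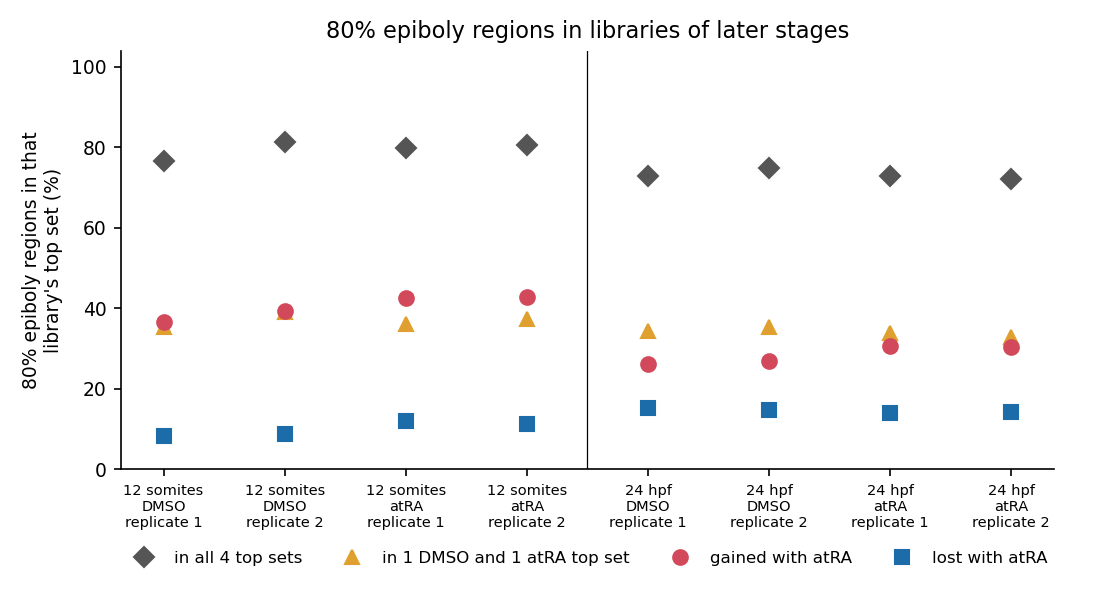
Percentage of 4 classes of 80% epiboly regions found in the top set of each of the 8 libraries of later stages. Lost regions lie at 8.36% to 15.1% in every library, below gained regions at 26.1% to 42.9%, and regions in all 4 top sets lie at 72.1% to 81.4%.

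The last comparison asked whether treated gastrulae shared more peaks with older control embryos. Of the top peaks, 52.8% and 53.0% in the DMSO libraries and 55.6% and 54.6% in the atRA libraries overlapped the top sets of both 12 somites DMSO libraries. The difference was 2.20 points without overlap of the groups (two-sided exact permutation p = 0.33 at 50000 peaks, n = 2 each, the smallest possible). It was 1.25 points with the best 100000 peaks and 4.27 with ranking by fold. Reciprocal overlap of 50% gave 6.61 points but also depends on peak width. Median widths of top peaks were 377 and 375 bp in DMSO and 357 and 299 bp in atRA. In the 12 somites DMSO libraries they were 244 and 292 bp. The part of width was not tested. The q-value limit of 0.01 gave 16.0 points. It left the groups with unequal peak numbers (atRA minus DMSO -183320), so that value cannot be compared with the others. With both 24 hpf DMSO libraries the shares were 53.4% and 52.8% in DMSO and 51.6% and 54.5% in atRA. These groups overlapped, with a difference of -0.064 points (two-sided exact permutation p = 1, n = 2 each). The groups thus lay apart for the next stage sampled and not for 24 hpf. The 12 somites DMSO libraries had background pileups of 0.69 and 1.15, nearer to those of the atRA than of the DMSO gastrulae, and the part of depth in the difference was not tested.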

How the data were processed

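The authors deposited 1 narrowPeak list per library. Bowtie2, SAMtools and MACS2 and the builds GRCz10 and danRer10 are named in the submitters' processing notes, without versions or settings, and peak names in the deposited lists hold a word for nucleosome-free. How such fragments were chosen and whether reads were shifted is not given in the sources used here. Per peak the authors deposited a fold enrichment (a ratio to the caller's background), −log10 p-values and −log10 q-values, the summit, and a score equal to 10 times the −log10 q-value, cut to a whole number, in at least 99.99% of peaks. These are the authors' values and only rank or describe peaks within a list.

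Peaks on chromosomes 1 to 25 were ranked by −log10 p-value, then fold, then position (Python 3.11.15, numpy 2.4.6, pandas 2.3.3, scipy 1.17.1, matplotlib 3.10.9). Summit and background pileups were solved from fold and p, within 0.001. Read totals are unknown, so no counting intervals are given. Groups were compared by exact permutation of library labels. Named regions were the 10 per direction with the best worse rank, and the 200 kb windows with most calls. Members, definitions and lists were chosen with earlier results of these data known. The planned comparisons with genes, motifs and sequences were not run for want of a genome and annotation of the files' build. The counting was tested on simulated lists made from DMSO replicate 1, with planted regions removed outright. Those lists were of equal depth, so the test does not cover lists of unequal depth. Alternatives are listed under the closing section.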

Additional observations from a re-analysis of the deposited data

Results flagged for a closer look

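The difference between atRA and DMSO in the share of the best 50000 peaks in the end segments of chromosomes (10% of the length at either end) had opposite signs at 80% epiboly and 12 somites. It was 3.38 percentage points at 80% epiboly, where both atRA libraries lay above both DMSO libraries, and -1.50 points at 12 somites, where both lay below. These 2 values lay 4.87 points apart, with an exact permutation p of 0.0556 over 36 labelings, the smallest possible. The comparison was chosen after the positions were seen. At both stages the group with the lower background pileups had the larger share. Background pileups were 3.18 and 3.28 in DMSO and 2.47 and 0.87 in atRA at 80% epiboly. At 12 somites they were 0.69 and 1.15 in DMSO and 1.6 and 1.44 in atRA. Exposure began at 30% epiboly for the former stage and at 80% epiboly for the latter. The parts of depth and exposure were not tested. Mean shares were 21.9% ± 0.163 in DMSO and 25.3% ± 0.238 in atRA at 80% epiboly (SD, n = 2 each), and 26.1% ± 0.373 and 24.6% ± 0.058 at 12 somites. Within groups of 2 libraries no single library could be set apart by a test.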

How the results depend on the processing

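Separation by treatment stayed positive, at 4.26 to 6.73 points, in all settings with 4 libraries; leaving out 1 library gave -0.792 to 11.5, with -0.792 without DMSO replicate 1 and -0.224 without DMSO replicate 2. With the best 20000 or 100000 peaks as the top set, the wide set was the best 40000 or 150000. Gained regions (422) numbered 174 with the best 20000 peaks, 1858 with 100000, 1835 at a q-value of at most 0.01, 26 if absent from the whole list, 3220 if absent from the top set, and 681 to 2383 without 1 library. Lost regions (610) in those settings numbered 248, 3023, 76863, 29, 4346 and 1277 to 2156, with 946 ranking by fold and 1620 under reciprocal overlap of 50%. The balance of gained minus lost regions (-188) was -74, -1165, -75028, -3 and -1126 in the same 5 settings, -510 by fold, -1187 under reciprocal overlap, -112 within 100 bp of summits and -97 with tied peaks kept together. It was -677 to 227 without 1 library, with 227 without atRA replicate 1 and 93 without atRA replicate 2. Crossed counts stayed at 0 to 102 except with 100000 peaks (207 to 473), absence from the top set (880 to 1407) and the q-value limit (1205 to 20808), where list lengths differ and the gained count lies within the crossed range. The gap between gained and lost regions at 12 somites (29.3 points) was 10.2 at that q-value, 48.1 for absence from the whole list, and 0.37 to 36.1 without 1 library. Peak number, the 12 somites share and both chromosome-position results kept their direction in every setting run, but not their size. The difference in peak number was -281780 to -84586.5 without 1 library. The 12 somites share (2.20 points) was 1.25 with 100000 peaks, 4.27 by fold and 6.61 under reciprocal overlap, which also depends on peak width. It was 16.0 at that q-value, where list lengths differ. The position results ranged from 2.28 to 3.97 points for peaks and 16.7 to 28.5 for gained minus lost regions. Of the named regions, 3 gained and 0 lost lacked a peak in both lists of the other group, and 5 gained and 3 lost were also called with the best 100000 peaks. Of all 422 gained and 610 lost regions, 406 and 604 were also called under reciprocal overlap, and 418 and 609 within 100 bp of summits. Only 209 and 297 were also called with ranking by fold. With the best 100000 peaks 133 and 169 were also called. Absence then meant a rank past 150000, near the end of the atRA replicate 2 list at 154354. With the best 20000 peaks 13 and 11 were also called. These equal the numbers with a worse own rank within 20000, as a rank past 100000 is also past 40000, so they test nothing further. Ties and the position results were added after the data were seen; the cause of these moves was not tested, and fewer libraries by construction give longer lists.

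The labels do not say whether equal replicate numbers pair a DMSO with an atRA library. Deviations from the group means had a correlation of -0.0752 over 31067 regions. That value cannot decide on pairing, as the DMSO libraries differed by less than the sampling error that the index of dispersion assumes. With a replicate block the separation was 5.58 points, the peak number differed by -183184 (exact permutation p = 0.5) and the 12 somites share by 2.20 points (exact permutation p = 0.5, the smallest possible). Results on gene starts, response elements and gene lists were not run, without a genome of the files' build. Depth limits the lists: rank 100000 lay at a summit pileup of 29 and 32 in DMSO, 23 in atRA replicate 1 and 8 in atRA replicate 2.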
